A study of Mus musculus with 6 samples.

Results

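The genes described here are 9 genes of the fat cell programme, Pparg, Cebpa, Fabp4, Adipoq, Plin1, Cd36, Lpl, Cidec and Cfd, together with Car3, which encodes carbonic anhydrase 3. They were chosen by name: a probe belonged to the set when its RefSeq accession mapped to one of these symbols. All 10 genes were found, on 12 of the 55681 probes of the array, which holds 20660 named genes. Cidec and Lpl had 2 probes each, and the brightest probe of a gene was used.

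The series asked which genes distinguish fibroblasts of the heart from fibroblasts of the tail in the adult mouse. Cells labelled as heart fibroblast (3 arrays) and as tail fibroblast (3 arrays) came from male C57/Bl6-J mice labelled as 8 weeks old, with 8 to 10 weeks given in the protocol. Chopped hearts and pieces of skinned tail were digested with trypsin/EDTA or collagenase type II, and the released cells were grown on plastic for 5 days without a named sorting step. No group carried a transgene, a deletion or a drug. Each group is given as 3 biological replicates pooled from 2 animals, so the replicates may share animals, and p-values measure only the spread between these cultures. Total RNA was labelled with Cy3 and hybridised to 1-colour Agilent arrays, all on 1 slide.

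Pparg and Cebpa encode transcription factors that switch each other on and maintain the fat cell state. Their targets include genes for taking up and carrying fatty acids (Lpl, Cd36, Fabp4), for coating and enlarging the lipid droplet (Plin1, Cidec) and for secreted proteins of the fat cell (Adipoq, Cfd). Pparg, Cd36, Lpl and Fabp4 are also used outside fat, by macrophages and by endothelium among others. Carbonic anhydrases interconvert carbon dioxide and bicarbonate, and the mouse Car3 enzyme is abundant in fat cells and in slow skeletal muscle.

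Levels are given as log2 signal, the log2 of the processed intensity minus the 75th percentile of the same array, so that 0 marks that percentile. A probe counted as measured where the scanner software called it well above background. Different probes were not compared with each other in level, except to choose the brightest probe of a gene and in summed marker intensities. In such a sum the brighter probes weigh most. In bulk cultures, fewer cells of a type and less RNA per cell cannot be told apart.

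Before any comparison, 2 arrays stood apart. The array labelled heart 2 had 99.3% of spots well above background, against 47.3% to 55.2% on the other 5, and correlated with them at 0.742 to 0.764 over all probes, where the other pairs gave 0.957 to 0.988. Of the 20757 probes below background on all other arrays, 98.3% were well above it on heart 2, at a median log2 signal of -2.35 there, so a raised value on heart 2 of a gene that is dim elsewhere is not read as expression. The array labelled tail 1 correlated with the arrays labelled heart 1 and heart 3 at 0.988 and 0.979, and with tail 2 and tail 3 at 0.969 and 0.957. At 9 of the 10 genes, all but Fabp4, the value labelled tail 1 lay nearer to the mean of heart 1 and heart 3 than to that of tail 2 and tail 3. The value labelled heart 2 lay nearer to tail 2 and tail 3 at 8 of the 10, all but Cebpa and Fabp4, but for genes dim on heart 1 and heart 3 this follows from its raised signal: of the 291 probes below background on heart 1, heart 3 and tail 1 and well above it on tail 2 and tail 3, 96.6% did so. Every comparison below is therefore given with all 6 arrays by label and again without these 2, as heart 1 and heart 3 against tail 2 and tail 3. Because the array labelled tail 1 was set aside on its measured profile, the p-values over 4 arrays are too small by an unknown amount. All 16 fibroblast markers examined, among them Col1a1, Pdgfra, Dcn and Thy1, were well above background on all 6 arrays, as were most spots on heart 2. By label limma called 0 of them. Over the 4 arrays limma called 5 higher in heart, among them Pdgfra and Dcn, and 2 lower, among them Thy1. The other 9 were not called. Their median difference was 0.59, against -0.06 for all features, of which 7.76% were higher and 6.55% lower.

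By label, none of the 10 genes separated heart from tail. For each of them the 3 heart and 3 tail values overlapped, where 9.85% of the features tested had values that did not. Only 5 genes (Pparg, Cebpa, Fabp4, Cd36 and Lpl) were measured well enough to enter the fit, which needs 1 group whose arrays all measured the probe above background, and 0 were called by limma at an adjusted p of 0.05. Among all features 0 of 20202 features (0%) were called, although 465 had an unadjusted p under 0.05 and the smallest adjusted p was 0.189. The median difference, heart minus tail, was -0.31 for the 5 genes and -0.35 for all features tested.

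Without the 2 arrays, 5 genes were lower in heart cultures (Car3, Cfd, Plin1, Cebpa and Pparg), 1 was higher (Cd36), 3 were not called (Adipoq, Lpl and Fabp4), and Cidec could not be tested. The limma fit called 6.55% of 20575 features lower in heart and 7.76% higher. Of the 9 genes tested, 4 (Car3, Plin1, Cfd and Adipoq) entered the fit through the tail arrays alone, so they could scarcely have come out higher in heart, and the count of 5 is not read against that share. Among the 5 genes measured on all 6 arrays, Pparg and Cebpa were called lower and Cd36 higher. The median difference of these 5 was -0.17, against -0.0755 for the 18550 features well above background on the 4 arrays. Heart and tail values did not overlap for 8 of the 9 genes tested, all but Fabp4, and for 62.3% of all features, a share with which 2 against 2 arrays say little.

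**Figure D1:**
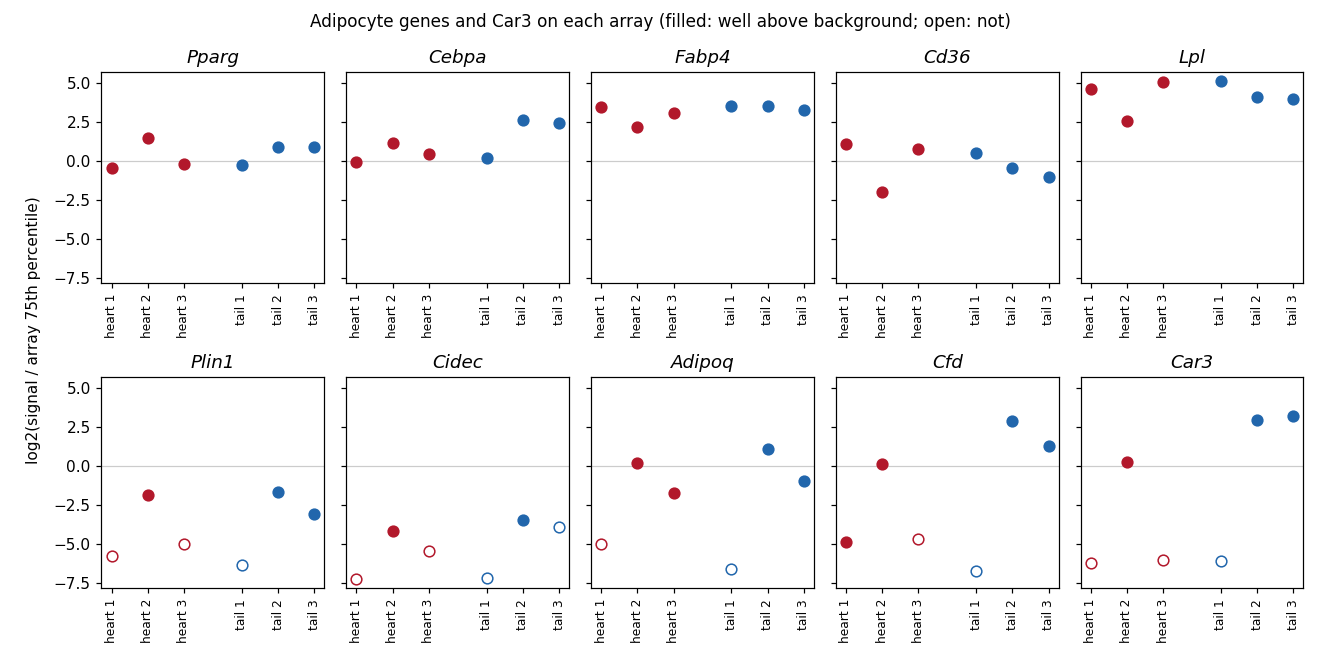
Log2 signal of the 10 genes on each array, in 1 panel per gene, with heart arrays left of tail arrays. Red points are heart and blue points tail; filled points are well above background and open points are not. For Car3 the arrays labelled heart 1, heart 3 and tail 1 lie near -6, and the other 3 lie above 0.

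Car3 had the widest separation among the 10 genes. Its log2 signal was -6.18, 0.26 and -6.03 on heart 1, 2 and 3, and -6.09, 2.95 and 3.22 on tail 1, 2 and 3. Car3 was thus below background on heart 1, heart 3 and tail 1 and well above it on the other 3 arrays, so the labelled groups overlapped. On heart 2, 3.98% of the probes that were dim on all other arrays read as high as Car3 or higher. By label the mean was -3.98 ± 3.68 in heart and 0.03 ± 5.30 in tail (SD, n = 3 each), and a limma fit without the background filter gave a difference of -4.01 (SE 2.99, adjusted p = 0.736). Without the 2 arrays the fitted difference was -9.19 (SE 0.17, limma adjusted p = 0.00055). Since both heart values lie under background, the supported statement is a bound: Car3 was at least 224-fold lower in heart 1 and heart 3 than in tail 2 and tail 3. Here a bound sets the bright arrays against the lowest signal called well above background on each dim array.

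Of the 15 other carbonic anhydrases 10 were tested over the 4 arrays, with 2 higher in heart, 1 lower and 7 not called, where 7.76% of all features were higher and 6.55% lower. Their median difference was 0.05. Car13, a cytosolic isoenzyme, had a log2 signal of 2.31, -0.52 and 1.96 on heart 1, 2 and 3, and 2.10, -0.04 and 0.12 on tail 1, 2 and 3. It was 4.28-fold higher in heart 1 and heart 3 than in tail 2 and tail 3 (limma adjusted p = 0.0049), and its call held without any 1 further array. Car5b, a mitochondrial isoenzyme, differed by -1.59 (limma adjusted p = 0.005), a call lost without tail 3 (adjusted p = 0.0619). Car15 differed by 0.88 (limma adjusted p = 0.0266), a call lost without 1 or another array. In the RefSeq gene order of GRCm38.p6, Car13, Car1, Car3 and Car2 follow one another on chromosome 3, a known cluster of related genes. Within it Car13 was called higher in heart, Car1 differed by 0.08 (limma adjusted p = 0.791), Car3 was lower, and Car2 was not measured well enough to test.

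Skeletal muscle markers, listed because Car3 is a known muscle gene, also differed between these arrays. Their summed intensity, in units of each array's 75th percentile, was 17.6, 16.5 and 14.1 on heart 1, 2 and 3, and 13.05, 41.4 and 37.7 on tail 1, 2 and 3. Most of it was Acta1, skeletal actin, with 13.7, 9.67 and 10.8 on heart 1, 2 and 3, and 9.49, 38.8 and 33.1 on tail 1, 2 and 3. The other 19 markers summed to 3.96 and 3.33 on heart 1 and heart 3, against 2.60 and 4.56 on tail 2 and tail 3, so the higher sum on tail 2 and tail 3 was that of a single gene. Of 20 markers 10 were well above background on heart 1 and 10 on heart 3, against 12 on tail 2 and 12 on tail 3. Over the 4 arrays 13 were tested and 5 were lower in heart, among them Myh3, an embryonic myosin, at least 15.9-fold, and Myog, a myogenic factor, at least 2.89-fold. Among all features 6.55% were lower in heart and 7.76% higher. Of the 5 lower markers, 3 entered the fit through the tail arrays alone. Myh2 was higher in heart, by at least 6.19-fold, and entered the fit through the heart arrays alone. The other 7 were not called, among them Myh1, which differed by 3.11, and Myh8, by 1.77. The median difference of the 13 was -0.18, against -0.06 for all features. The markers Ckm, Mylpf, Myh4, Pax7, Myf5 and Myf6 were below background on all 4 of these arrays. Myod1, a myogenic factor, was well above background on tail 2 alone among these 4 arrays, and it was not tested. The part of muscle cells in the Car3 difference was not tested.

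Cfd, which encodes adipsin (complement factor D), a serine protease secreted by fat cells, followed a like pattern. Its log2 signal was -4.85, 0.12 and -4.69 on heart 1, 2 and 3, and -6.69, 2.92 and 1.30 on tail 1, 2 and 3. The 3 high arrays were again heart 2, tail 2 and tail 3, and heart 1 was just above background. By label, Cfd averaged -3.14 ± 2.82 in heart and -0.82 ± 5.15 in tail (SD, n = 3 each), with a difference of -2.32 (SE 2.73, limma adjusted p = 0.736 without the background filter). Without the 2 arrays it was -6.88 (SE 0.56, limma adjusted p = 0.0036), with 1 of the 2 heart arrays well above background, so the size is not exact. Leaving out 1 of the 4 arrays moved it between -7.69 and -6.07, with the call kept.

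Adipoq, which encodes adiponectin, the hormone made by fat cells, varied widely inside each group. Its log2 signal was -5.01, 0.22 and -1.71 on heart 1, 2 and 3, and -6.62, 1.14 and -0.94 on tail 1, 2 and 3. Adipoq was well above background on heart 2 and heart 3 and on tail 2 and tail 3. The labelled means were -2.17 ± 2.64 in heart and -2.14 ± 4.02 in tail (SD, n = 3 each). The 4-array difference was -3.46 with a 95% interval of -6.92 to -0.0051, and it was not called (SE 1.30, limma adjusted p = 0.175). The 2 heart arrays stood 3.30 apart and the 2 tail arrays 2.08, so the comparison could not settle the size of a difference.

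**Figure D2:**
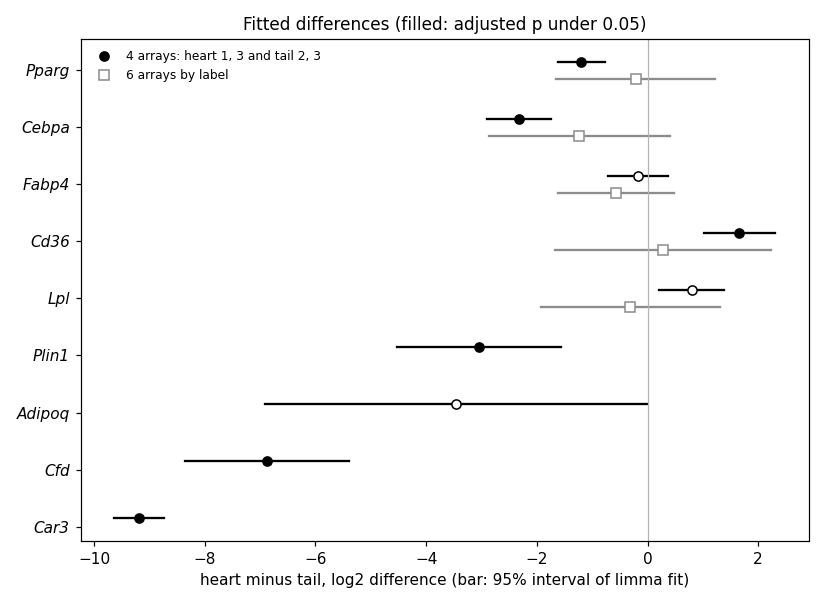
Difference in log2 signal, heart minus tail, for each gene: by label over 6 arrays and without the arrays labelled heart 2 and tail 1, with 95% intervals from limma. Filled symbols were called, and only the 5 genes tested by label have a square. The intervals by label reach across 0, while Car3, Cfd, Plin1, Cebpa and Pparg lie below 0 and Cd36 above it over 4 arrays.

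Plin1, which encodes perilipin 1, the coat protein that guards the lipid droplet against lipases, was dim throughout. Its log2 signal was -5.77, -1.86 and -4.97 on heart 1, 2 and 3, and -6.33, -1.62 and -3.03 on tail 1, 2 and 3. As for Car3, it was well above background on heart 2, tail 2 and tail 3 only. By label the means were -4.20 ± 2.07 in heart and -3.66 ± 2.42 in tail (SD, n = 3 each). On the 4 arrays, Plin1 was at least 5.28-fold lower in heart (difference -3.04, SE 0.56, limma adjusted p = 0.0327). This call was lost without heart 1 (adjusted p = 0.105), without heart 3 (0.076) and without tail 2 (0.0538), each by limma.

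Cidec encodes a droplet protein that drives the fusion and growth of lipid droplets in fat cells. Its brighter probe gave a log2 signal of -7.22, -4.12 and -5.45 on heart 1, 2 and 3, and -7.16, -3.46 and -3.92 on tail 1, 2 and 3. Only heart 2 and tail 2 were well above background, so Cidec entered neither fit. A bound can be set against tail 2 alone: Cidec was at least 3.53-fold lower in heart 1 than in tail 2. Its other probe was well above background on heart 2 alone.

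The 2 transcription factors were measured on every array. Pparg, the nuclear receptor at the centre of fat cell differentiation, had a log2 signal of -0.41, 1.47 and -0.18 on heart 1, 2 and 3, and -0.28, 0.88 and 0.92 on tail 1, 2 and 3. Heart 2 was the highest of the 6 arrays, and tail 1 lay between heart 1 and heart 3. The Pparg probe was printed 10 times per array, and the SD over these spots, which is technical, ran between 0.0286 and 0.137. By label Pparg averaged 0.29 ± 1.02 in heart and 0.51 ± 0.68 in tail (SD, n = 3 each; difference -0.22, SE 0.62, limma adjusted p = 0.865). Pparg was 2.29-fold lower in heart over the 4 arrays (difference -1.20, 95% interval -1.62 to -0.77, limma adjusted p = 0.014). Leaving out tail 2 or tail 3 as well ended the call, at limma adjusted p = 0.124 and 0.139.

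Cebpa, a leucine zipper factor that acts with Pparg, had a log2 signal of -0.03, 1.14 and 0.45 on heart 1, 2 and 3, and 0.19, 2.63 and 2.45 on tail 1, 2 and 3. Tail 2 and tail 3 were the highest, heart 2 came next, and tail 1 fell among the heart arrays. The labelled means were 0.52 ± 0.59 in heart and 1.76 ± 1.36 in tail (SD, n = 3 each; difference -1.24, SE 0.71, limma adjusted p = 0.725). Over the 4 arrays Cebpa was 5.03-fold lower in heart (difference -2.33, 95% interval -2.91 to -1.75, limma adjusted p = 0.0054). Cebpa was the only one of the 10 genes among the 433 probes of the authors' deposited table of heart over tail differences, which gives it a log2 fold of -2.09 and does not state the arrays it rests on.

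Of the 3 genes for taking up and carrying fatty acids, Cd36 was higher in heart over the 4 arrays, and Lpl and Fabp4 were not called. Cd36, the fatty acid translocase and scavenger receptor of fat cells, macrophages and small vessels, had a log2 signal of 1.08, -1.98 and 0.80 on heart 1, 2 and 3, and 0.53, -0.46 and -0.99 on tail 1, 2 and 3. Heart 1, heart 3 and tail 1 were the 3 highest and heart 2 the lowest. By label Cd36 averaged -0.03 ± 1.69 in heart and -0.31 ± 0.77 in tail (SD, n = 3 each; difference 0.27, SE 0.84, limma adjusted p = 0.874). In the 4-array fit Cd36 was 3.16-fold higher in heart (difference 1.66, 95% interval 1.01 to 2.31, limma adjusted p = 0.0179). The call was lost without heart 1 (adjusted p = 0.0576), heart 3 (0.0548) or tail 3 (0.0918), each by limma.

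Lpl, the lipase that frees fatty acids from circulating lipoproteins, had a log2 signal of 4.62, 2.59 and 5.11 on heart 1, 2 and 3, and 5.11, 4.13 and 4.0 on tail 1, 2 and 3. The order of the arrays was that of Cd36 in part: heart 3 and tail 1 were highest. Heart 2 was lowest, as it also was for the summed fibroblast markers. By label Lpl averaged 4.11 ± 1.33 in heart and 4.42 ± 0.61 in tail (SD, n = 3 each; difference -0.31, SE 0.70, limma adjusted p = 0.828). The 4-array difference was 0.80 (95% interval 0.21 to 1.38), which was not called (SE 0.22, limma adjusted p = 0.0916); without heart 1 as well it was (limma adjusted p = 0.0285). The dimmer Lpl probe kept the same order of heart over tail on those 4 arrays, at 2.84 and 3.18 for heart 1 and heart 3, against 2.21 and 2.10 for the pair of tail arrays.

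Fabp4, the fatty acid carrier of the fat cell and macrophage cytosol, overlapped between the groups throughout. Its log2 signal was 3.45, 2.16 and 3.08 on heart 1, 2 and 3, and 3.55, 3.56 and 3.30 on tail 1, 2 and 3. All arrays but heart 2 lay close together. By label Fabp4 averaged 2.90 ± 0.66 in heart and 3.47 ± 0.15 in tail (SD, n = 3 each; difference -0.57, SE 0.45, limma adjusted p = 0.725). The 4-array difference was -0.17 with a 95% interval of -0.71 to 0.38 (limma adjusted p = 0.636). Fabp5, a related carrier near Fabp4 on chromosome 3, was not called either, at a difference of 0.26.

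Many markers of cells that also use Cd36, Lpl and Fabp4 differed between these arrays. The summed intensity of 17 macrophage and leukocyte markers, in units of each array's 75th percentile, was 91.1, 25.3 and 164 on heart 1, 2 and 3, and 130, 77.7 and 57.1 on tail 1, 2 and 3. It was highest on heart 3 and tail 1, as for Lpl. It was lowest on heart 2, but so was the summed intensity of the fibroblast markers, so that low value is not read as a shared pattern. Over the 4 arrays 11 of 16 tested were higher in heart and 0 lower by limma, 5 were not called, and the median difference was 2.41, against -0.06 for all features, of which 7.76% were higher in heart. Of the 11, 1 entered the fit through the heart arrays alone. The marker Cd163 was below background on all 4 arrays. The 15 endothelial markers summed to 26.1, 13.6 and 32.4 on heart 1, 2 and 3, and to 26.5, 31.9 and 24.9 on tail 1, 2 and 3. All 15 were well above background on heart 1 and heart 3, against 10 on tail 2 and tail 3, where Cldn5, Tie1, Emcn, Robo4 and Sox17 were below it. Of the 15, 12 were called higher in heart by limma, against 7.76% of all features, and 0 lower, and 5 of the 12 entered the fit through the heart arrays alone. The 14 cardiomyocyte markers summed to 20.2, 8.52 and 21.5 on heart 1, 2 and 3, and to 21.3, 4.87 and 6.23 on tail 1, 2 and 3, of which Myl4 and Tnnt2 made up 19.8 and 20.9 on heart 1 and heart 3, against 3.12 and 3.92 on tail 2 and tail 3. The other 12 summed to 0.435 and 0.576 on heart 1 and heart 3, against 1.75 and 2.30 on tail 2 and tail 3. Of 8 tested by limma over the 4 arrays 2 were higher in heart (Tnnt2 and Myl4) and 4 lower (Actc1, Mb, Myl3 and Myl2). Among all features 7.76% were higher and 6.55% lower. Actc1 had the largest difference of the list, at least 29.8-fold lower in heart, and Mb was at least 4.22-fold lower. Of the 4 lower genes 2 entered the fit through the tail arrays alone. The 10 keratinocyte and sebocyte markers summed to between 5.92 and 7.72 on all arrays. The part of these cells in the Cd36 and Lpl values was not tested.

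The slide held 2 rows of arrays, and each row held both groups. Row 1 gave heart 1 minus tail 2 and row 2 gave heart 3 minus tail 3. Among the genes measured on every array, Cebpa differed by -2.65 in row 1 and -2.01 in row 2, Pparg by -1.29 and -1.10, Cd36 by 1.54 and 1.79, Lpl by 0.49 and 1.1, and Fabp4 by -0.11 and -0.22, so each kept its sign. For the genes below background on a heart array only bounds can be given. Car3 was at least 300-fold lower in heart in row 1 and at least 168-fold in row 2, and Plin1 at least 12.6-fold and 2.20-fold. Cfd differed by -7.77 in row 1 and was at least 44.5-fold lower in heart in row 2. Adipoq was at least 71.0-fold lower in heart in row 1 and differed by -0.77 in row 2, and Cidec was at least 3.53-fold lower in row 1 and below background on both arrays of row 2. With the row as a block over the 4 arrays the same 6 genes were called by limma, Adipoq staying above the threshold (adjusted p = 0.0602).

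Promoters are shown for 4 of the called genes because they held a match to a motif of the PPAR or C/EBP factors or to the TATA box. RefSeq promoters (GRCm38.p6) were found for 7 of the 10 genes, with 10 start sites, and the 250 bases before each start were searched on both strands. The PPAR element searched was a direct repeat of the half-site AGGTCA with 1 base between, each half-site with at most 1 mismatch, which 652 of 32841 mouse promoters (1.99%) held. For C/EBP the searched letters were TTGCGCAA, in 54 promoters (0.164%), and the looser TTGCNNAA, in 3142 (9.57%), which also takes in every TTGCGCAA. TATAAA, the core of the TATA box, was in 4062 (12.4%). The third Pparg start (chr6:115421816-115422065, plus strand) held 2 matches to TTGCNNAA, Cebpa (chr7:35119043-35119292, plus strand) held TATAAA, Plin1 (chr7:79732777-79733026, minus strand) held 2 matches to TTGCNNAA, and Cd36 (chr5:17835897-17836146, minus strand) held 1 PPAR element. Capitals mark these matches, read 5′ to 3′ along the gene's strand.
Pparg: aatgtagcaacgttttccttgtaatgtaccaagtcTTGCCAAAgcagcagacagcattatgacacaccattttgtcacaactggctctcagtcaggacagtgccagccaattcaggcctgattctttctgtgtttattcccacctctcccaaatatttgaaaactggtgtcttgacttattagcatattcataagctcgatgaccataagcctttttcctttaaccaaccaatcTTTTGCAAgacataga
Cebpa: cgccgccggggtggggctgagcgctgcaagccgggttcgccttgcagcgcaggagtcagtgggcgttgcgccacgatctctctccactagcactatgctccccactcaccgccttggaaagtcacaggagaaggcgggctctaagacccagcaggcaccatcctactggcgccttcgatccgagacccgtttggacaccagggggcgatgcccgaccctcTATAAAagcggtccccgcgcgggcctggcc
Plin1: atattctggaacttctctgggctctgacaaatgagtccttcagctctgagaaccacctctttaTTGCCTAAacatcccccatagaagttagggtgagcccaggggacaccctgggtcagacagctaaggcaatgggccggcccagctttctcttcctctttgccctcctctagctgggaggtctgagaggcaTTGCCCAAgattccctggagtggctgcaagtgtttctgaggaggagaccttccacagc
Cd36: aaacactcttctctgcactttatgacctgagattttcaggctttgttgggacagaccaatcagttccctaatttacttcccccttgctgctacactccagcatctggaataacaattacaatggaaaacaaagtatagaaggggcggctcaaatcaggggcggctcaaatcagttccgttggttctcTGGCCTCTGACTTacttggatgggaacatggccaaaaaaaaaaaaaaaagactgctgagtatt
Of the others, the second Pparg start held TATAAA, the second Cidec start held TTGCNNAA, and Cfd and Adipoq held no match in this window. A match is a description of letters, and binding was not measured.

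Other genes linked to fat cells, inhibitors of fat cell formation among them, were read from 8 lists of regulators, lipid enzymes, secreted proteins, brown fat genes and carbonic anhydrases. By label limma called none of them. In the 4-array fit 109 of their 129 genes were tested, of which 21 (19.3%) were lower in heart, against 6.55% of all features, 11 (10.1%) were higher, against 7.76%, and 77 were not called. Of the 21 lower genes 5 (Prdm16, Retn, Tmem26, Tbx1 and Gpd1) entered the fit through the tail arrays alone, and of the 11 higher genes 1 (Gpam) through the heart arrays alone. The 21 take in 4 inhibitors of fat cell formation and 1 carbonic anhydrase, and the 11 take in 2 carbonic anhydrases. The pooled shares mix genes of opposite role and are not read as a result about the fat cell programme.

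**Figure D3:**
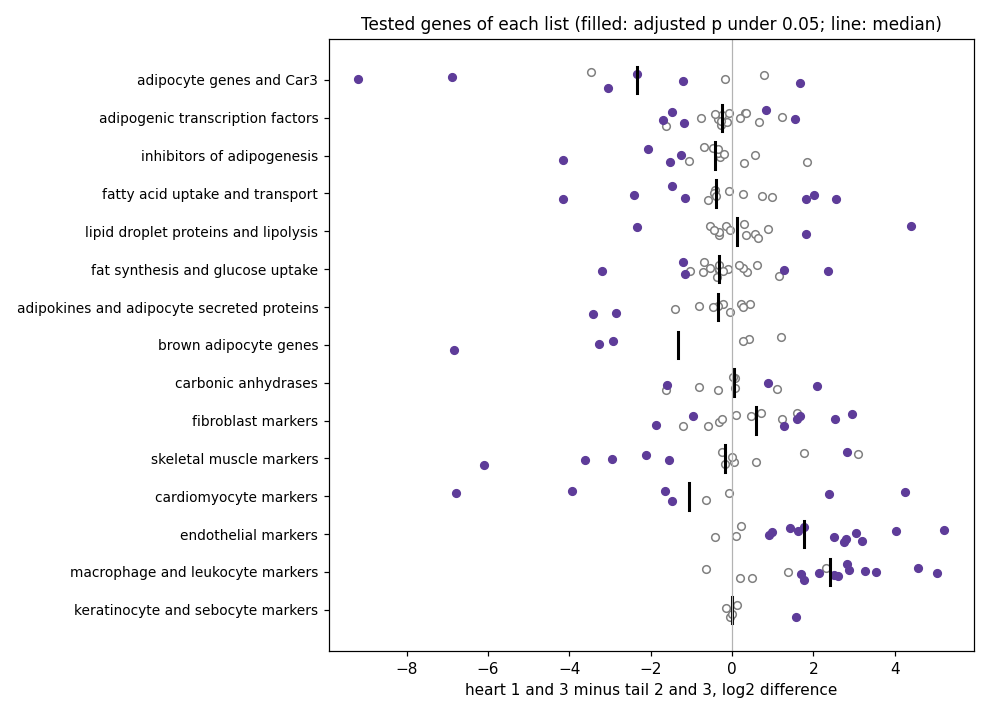
Difference in log2 signal, heart minus tail, without the arrays labelled heart 2 and tail 1, for the genes of each list, with 1 row per list. Filled points were called by limma, open points were not, and the bar is the list's median. Called genes lie on both sides of 0 in 5 of the 8 lists of fat cell genes and carbonic anhydrases, while endothelial and macrophage markers lie mostly above it.

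Among 19 further transcription factors that promote fat cell formation, 3 were lower in heart, 2 higher and 14 not called. Ebf1, an early factor of fat and B cells, differed by -1.48 (limma adjusted p = 0.0061), Zfp423, a preadipocyte factor, by -1.71 (0.0405), Nr1h3, the oxysterol receptor LXRα, by 1.55 (0.0146), and Prdm16, the brown fat regulator, by -1.17 (0.0131). Each of these calls was lost without tail 2 and without tail 3. Of 14 inhibitors of fat cell formation 4 were lower in heart, 0 higher by limma and 10 not called. Dlk1, the preadipocyte factor Pref-1, had a log2 signal of -0.39, 1.11 and -0.69 on heart 1, 2 and 3, and -0.76, 3.78 and 3.45 on tail 1, 2 and 3, so that tail 2 and tail 3 were highest and heart 2 next, as for Cebpa. It was 17.8-fold lower in heart over the 4 arrays, and it alone of the 4 was called without any further array. Twist1, a mesenchymal factor, differed by -2.06, Klf2 by -1.53 and Gata2 by -1.27.

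In fatty acid uptake and transport, 4 of 15 tested genes were lower in heart, 3 higher and 8 not called. Cav1, the caveolar coat protein, was 17.9-fold lower in heart over the 4 arrays, and Angptl4, a secreted inhibitor of Lpl, was 4.04-fold higher. Both calls held without any 1 further array. Apoe, a lipoprotein component, differed by 2.55 and Fabp3, the muscle-type fatty acid carrier, by -2.40, but both calls were lost without 1 or another array. Among lipid droplet proteins and lipases 1 of 14 tested was lower, 2 higher and 11 not called. G0s2, an inhibitor of the lipase Pnpla2, was 21.2-fold higher in heart, Mgll, the monoglyceride lipase, differed by 1.81 and Plin4 by -2.35. Plin2, the widely used droplet coat, differed by 0.30, Plin3 by -0.16, Lipe by 0.58 and Pnpla2 by 0.35, all not called, and of the 3 calls only that of G0s2 held without any 1 further array. Cidea, Plin5, Fitm1, Pnpla3 and Acvr1c were below background on these 4 arrays.

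Fat synthesis and glucose uptake genes split as well: of 20 tested, 3 were lower, 2 higher and 15 not called. Gpam, the first enzyme of glycerolipid synthesis, was 5.11-fold higher in heart, and its call alone of the 5 held without any 1 further array. Gpd1, which supplies glycerol phosphate, differed by -3.20, a call lost without heart 3 or tail 2. Pcx, pyruvate carboxylase, differed by 1.27 and Irs1, an insulin receptor substrate, by -1.20. Of 11 tested adipokine genes 2 were lower, 0 higher by limma and 9 not called. Cdh13, which encodes T-cadherin, a receptor of adiponectin, was 7.28-fold lower in heart and held without any 1 further array. Retn, which encodes resistin, was at least 6.97-fold lower, a call lost without heart 1 (limma adjusted p = 0.0732) or heart 3 (0.0797). Lep, the leptin gene, was below background on all 4 arrays.

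Of 6 tested genes of brown fat 3 were lower in heart and 3 not called, and Ucp1, the gene that defines heat production in brown fat, was below background on all 4 arrays. The 3 lower genes were Zic1, 114-fold, Tmem26, at least 5.75-fold, and Tbx1, by -2.93, whose call was lost with an array left out. Zic1 and Tbx1 are also known as patterning factors outside fat.

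The 5 named genes whose pattern over the 6 arrays was most like that of Car3 included none of the other 9 genes. Each gene was centred on its own mean over the 6 arrays, and the mean absolute gap to Car3 was taken over 13323 named features. The closest were Tnmd (0.228), which encodes the tendon protein tenomodulin, Lgr5 (0.277), a receptor of R-spondins, Irx1 (0.307), a homeobox factor, Rspo2 (0.385), an R-spondin, and Hoxb7 (0.487), a Hox factor. Among the other genes of the set Cfd had the smallest gap to Car3 (0.893) and Cd36 the largest (5.09). Car3 was below background on heart 1, heart 3 and tail 1, where its values have no exact size, and heart 2 carried the raised signal given above, so small gaps and their order are a rough description.

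**Figure D4:**
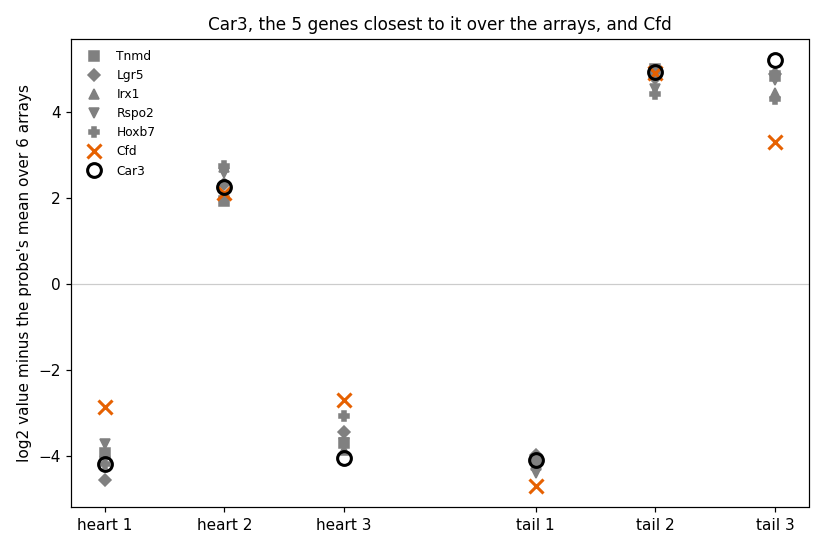
Log2 signal on each array after centring each gene on its own mean, for Car3, the 5 genes most like it and Cfd, with heart arrays left of tail arrays. The points run together: below 0 on heart 1, heart 3 and tail 1, above 0 on heart 2, tail 2 and tail 3.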

How the data were processed

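The deposited arrays hold processed signal, an intensity that the authors' scanner software (Agilent Feature Extraction 11.0.1.1, per the submitters' processing notes) had corrected for background, with flags for well above background, non-uniform and saturated spots. The authors' deposited table gives log2 fold values and absolute fold values for 433 probes; no source used here gives its normalization. The file headers name build mm9. Control spots and outlier spots were left out, spots of a probe were averaged, and log2 intensity was centred on each array's 75th percentile. No probe of the 10 genes was saturated. Heart was compared with tail by limma 3.58.1 in R 4.3.3 (lmFit and eBayes, two-sided, Benjamini-Hochberg over all features tested, threshold 0.05), after checks on simulated data. A feature was the brightest probe of a named gene, or an unnamed probe (28446 of 55681), kept when every array of 1 or both groups measured it above background. Of each list of fat cell genes and carbonic anhydrases, up to 4 called genes with the largest absolute differences are named. Of the marker lists only some called genes are named, not always those with the largest differences. Genes of known role named as uncalled or below background were picked after their values were seen. The members and the lists were chosen with earlier results of these data known. Alternatives were quantile, median and cyclic loess scaling, normexp background, other filters and probe choices, array weights, slide row and replicate blocks, and arrays left out. The number of arrays limits the precision.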

Additional observations from a re-analysis of the deposited data

How the results depend on the processing

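By label, 0 features were called, and the count moved to 2143 with array weights, which also called Pparg (-1.13), Cebpa (-2.21) and Cd36 (1.64), and to 2943 without the arrays labelled heart 2 and tail 1; leaving out 1 array at a time gave 0 to 239, the highest without heart 1. The replicate block gave 121 calls, none of them among the 10 genes; same-numbered arrays deviated together at r of 0.381, 0.052 and -0.244, so the numbers were not taken to pair the cultures, and not every array correlated best with its own number. The 4-array comparison shares only 1 replicate number, so no paired fit was made there. Signs by label turned for Pparg with quantile scaling (0.26), cyclic loess (0.12), normexp (0.28) and 1 array left out (-0.80 to 0.14), for Cd36 with quantile (-0.91), median scaling (-0.69), normexp (-0.21) and 1 array left out (-0.28 to 1.25), and for Lpl with quantile (0.24), cyclic loess (0.31), normexp (0.30), array weights (0.75), both arrays left out (0.80) and 1 array left out (-0.81 to 0.45). The median of all features by label was -0.35, but -1.31 with median scaling and -0.02 with cyclic loess.

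Over 4 arrays the 2943 calls fell to 706 without a background filter, which kept Car3 and Cfd and lost Pparg, Cebpa, Plin1 and Cd36, and ran between 1495 (without tail 3) and 4065 (without heart 1). Car3, Cfd and Cebpa were called without any 1 of the 4 arrays. Fabp4 ran between -0.35 and 0.0176, its sign turning without heart 3. Plin1 was lost with normexp (-1.14), which also moved Car3 to -5.79 and Cfd to -4.93. Lpl was called with an intensity trend (limma adjusted p = 0.0499). Requiring signal on all 4 arrays left Car3, Cfd, Plin1 and Adipoq untested. Other causes were not tested. Background limits the dim probes of Car3, Plin1, Cidec and Adipoq to bounds or wide intervals.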
